A study of Mus musculus with 14 samples.

Results

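Antibodies and the signals that draw the cells making them were read in 14 mouse heart libraries through 7 genes of the 54532 counted in each: the immunoglobulin genes *Igkc*, *Ighm* and *Igha*, the joining chain gene *Jchain*, the B cell receptor signalling genes *Cd79a* and *Cd79b*, and the chemokine gene *Cxcl13*. These genes were chosen by their levels in the same libraries, as genes of B cells and plasma cells that differed between libraries or groups, so their levels and fold changes are a description, and calls among them are only counted beside the share over all genes. Hearts labelled WT (n = 4) and YG8-800 (n = 4) form one experiment, and hearts labelled KIKO-700 female (n = 3) and KIKO-700 male (n = 3) come from another line. All mice are labelled C57BL/6 and 180 days old, whereas the study's text gives 18 months. YG8-800 mice carry a null allele of the targeted endogenous gene on both chromosomes and a single copy of a human transgene with a long GAA repeat. KIKO-700 mice carry a GAA repeat in an intron of one endogenous allele and a deletion of the other. The WT mice are described as littermates of YG8-800 with neither. No treatment was given by the labels, and WT hearts of the KIKO-700 cohort were not analysed here, so line and cohort cannot be told apart between the 2 experiments.

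A B cell carries an antibody on its surface, with a signal-passing pair of proteins, CD79A and CD79B, beside it. A plasma cell, which a B cell becomes after activation, secretes antibody in bulk and devotes much of its messenger RNA to a heavy chain and a light chain. CXCL13 is released by stromal and myeloid cells and attracts B cells through the receptor CXCR5, in lymphoid follicles and, in mice, into the body cavities and the fat-associated lymphoid clusters that line them. The heart normally holds few B cells, some of them in its blood vessels and some in the tissue.

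Total counts ranged from 5226233 in WT 3 to 11650840 in YG8-800 1, and genes of mitochondrial DNA held 28.9% to 44.6% of them. Levels are given in CPM (counts scaled by the library total), and are not divided by transcript length, since each transcript is read from its 3′ end. The labels give no sex in the YG8-800 experiment, and the study states that only males were used. *Xist*, the RNA of the silenced X chromosome, stood at 32.5 to 60.3 CPM in WT 1, WT 2, WT 4, YG8-800 1 and YG8-800 3 and at 0 to 0.272 CPM in WT 3, YG8-800 2 and YG8-800 4. It stood at 33.9 to 39.8 CPM in the KIKO-700 females and 0.808 to 1.29 CPM in the males, as labelled. Groups are called by their labels, and whether the labels stand for the genotypes was not tested. Library WT 2 stood far above the other 13 in *Igkc*, *Ighm* and *Jchain*, so values are given with and without it.

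The stretch just before the start of transcription is shown for the J chain and for CXCL13, since these are a secretory and a recruiting gene whose stretch lies wholly outside the annotated gene, both on chromosome 5 of GRCm38. Each run holds 250 bases, read 5′ to 3′ on the gene's own strand from RefSeq (GRCm38.p6), and capitals mark a TATAAA match.
*Jchain*, chr5:88527898-88528147, minus strand: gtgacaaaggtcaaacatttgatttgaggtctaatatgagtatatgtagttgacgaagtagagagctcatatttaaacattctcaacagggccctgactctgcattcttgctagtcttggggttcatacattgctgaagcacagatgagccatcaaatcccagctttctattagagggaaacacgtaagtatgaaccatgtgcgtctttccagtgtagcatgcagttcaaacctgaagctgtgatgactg
*Cxcl13*, chr5:95956689-95956938, plus strand: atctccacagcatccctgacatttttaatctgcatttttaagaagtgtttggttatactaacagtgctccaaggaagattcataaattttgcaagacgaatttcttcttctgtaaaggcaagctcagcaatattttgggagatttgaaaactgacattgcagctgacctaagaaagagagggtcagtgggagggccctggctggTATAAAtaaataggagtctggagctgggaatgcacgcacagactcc
On both strands, 3 motifs were searched for: the octamer ATGCAAAT bound by OCT factors in immunoglobulin promoters, the TATA box core TATAAA, and the ETS factor core GGAAGT. The *Cxcl13* stretch held 1 TATAAA and no octamer or ETS core. The first base of that match lies at -46, counted from the base just after the stretch. The GENCODE M21 start of *Cxcl13* given below, 95956951, lies further on, so the match is farther from it. The *Jchain* stretch held none of the 3 motifs. Of 32851 stretches of that length, 1.6% held the octamer, 12.4% the TATA core and 19.7% the ETS core. A match is a run of letters and was not tested as a binding site.

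*Igkc*, the constant region of the kappa light chain, held the most counts of the 7 genes in 13 of 14 libraries (per transcript end, not per length). It is a single-exon gene on chromosome 6 of GRCm38 from 70726435 to 70726966 (ENSMUSG00000076609), overlapped on the same strand by the lincRNA gene *Gm30211*, which had 2 counts in all libraries. It stood at 41.8, 487, 8.99 and 12.4 CPM in WT 1, WT 2, WT 3 and WT 4, and at 4.12, 4.34, 11.96 and 4.81 CPM in YG8-800 1, 2, 3 and 4. WT 2 was far above every other library, and YG8-800 3 lay above WT 3, so the groups overlapped. In KIKO-700 it stood at 23.0, 15.1 and 34.1 CPM in the females and 12.8, 13.2 and 60.3 CPM in the males. The highest KIKO-700 library was male 3, and the other 2 males lay below all 3 females. Of all 7264 *Igkc* counts, 5143, or 70.8%, came from WT 2, whose level was 8.06 times that of the next library, KIKO-700 male 3, and 37.5 times the median of all 14. The exact Poisson interval (95%) of WT 2 was 473 to 500.0 CPM and that of KIKO-700 male 3 was 55.8 to 65.1 CPM. Such intervals cover counting error only.

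*Ighm*, the constant region of the IgM heavy chain that naive B cells and IgM plasma cells use, followed *Igkc* in its highest libraries (chromosome 12 from 113418558 to 113422730, ENSMUSG00000076617). It stood at 11.9, 169, 4.21 and 4.41 CPM in WT 1 to 4 and at 3.78, 5.46, 4.61 and 2.09 CPM in YG8-800 1 to 4. Apart from WT 1 and WT 2, the libraries of both groups shared one range. The KIKO-700 females held 4.88, 5.95 and 9.33 CPM and the males 4.18, 4.66 and 15.4 CPM, with male 3 again the highest. WT 2 held 1786 of 2472 counts, 72.3%, at 11 times the level of KIKO-700 male 3.

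*Jchain*, which joins IgM and IgA molecules into polymers and is a gene of antibody-secreting cells, was close to absent outside WT 2 (chromosome 5 from 88519809 to 88527891, ENSMUSG00000067149). Its levels were 1.5, 34.5, 0 and 0.756 CPM in WT 1 to 4 and 0.258, 0.7, 0.623 and 0.636 CPM in YG8-800 1 to 4. They were 0.875, 0.119 and 1.07 CPM in the KIKO-700 females and 0, 0.411 and 2.02 CPM in the males. WT 2 held 365 of 444 counts, 82.2%, the largest share of the 7 genes. The 0 counts in WT 3 and in KIKO-700 male 1 allow up to 0.574 and 0.404 CPM (3 counts), and the 4 YG8-800 levels rest on 3 to 7 counts each.

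*Igha*, the IgA heavy chain constant region, had another pattern (chromosome 12 from 113254830 to 113260236, ENSMUSG00000095079). It stood at 3.63, 6.43, 4.401 and 3.78 CPM in WT 1 to 4 and at 0.601, 1.68, 2.99 and 0.999 CPM in YG8-800 1 to 4. In CPM the groups did not overlap, and WT 2 was 1.15 times the next library, KIKO-700 male 3. With each library also scaled by TMM, the trimmed mean of M values that evens out the bulk of genes, the groups overlapped. The KIKO-700 females held 3.63, 0.952 and 1.60 CPM and the males 0.943, 2.88 and 5.61 CPM, ranges that overlap each other and those of both other groups.

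*Cd79a* and *Cd79b*, the signalling chains of the B cell receptor, were at the limit of detection. *Cd79a* (chromosome 7 from 24897381 to 24902197, ENSMUSG00000003379) had 11 counts in all, of which 6 were in WT 2, 2 in WT 1 and 1 each in YG8-800 1, YG8-800 3 and KIKO-700 male 3. The 9 libraries at 0 allow up to 0.272 to 0.574 CPM each, and no difference between groups was detectable at this depth. *Cd79b* (chromosome 11 from 106311341 to 106314762, ENSMUSG00000040592) had 72 counts, 24 of them in WT 2, where it stood at 2.27 CPM (1.46 to 3.38 CPM, exact Poisson interval). It stood at 0.625, 0 and 0.252 CPM in WT 1, 3 and 4. Its range was 0.0908 to 0.498 CPM in YG8-800, 0.133 to 0.875 CPM in KIKO-700 females and 0.411 to 0.828 CPM in males. Outside WT 2 the 4 groups shared one range.

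*Cxcl13* differed from *Igkc*, *Ighm* and *Jchain* in that the WT group as a whole was higher and not WT 2 alone (chromosome 5 from 95956951 to 95961068, ENSMUSG00000023078). Its levels were 5.13, 10.03, 2.68 and 7.56 CPM in WT 1 to 4, from 41, 106, 14 and 60 counts. They were 0.858, 0.28, 2.12 and 1.18 CPM in YG8-800 1 to 4, from 10, 2, 17 and 13 counts. Every YG8-800 library lay below every WT library, with YG8-800 3 and WT 3 the nearest pair and their counting intervals overlapping (1.23 to 3.39 and 1.47 to 4.50 CPM). The KIKO-700 females held 2.13, 2.02 and 2.40 CPM and the males 2.02, 1.23 and 1.47 CPM.

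**Figure D1:**
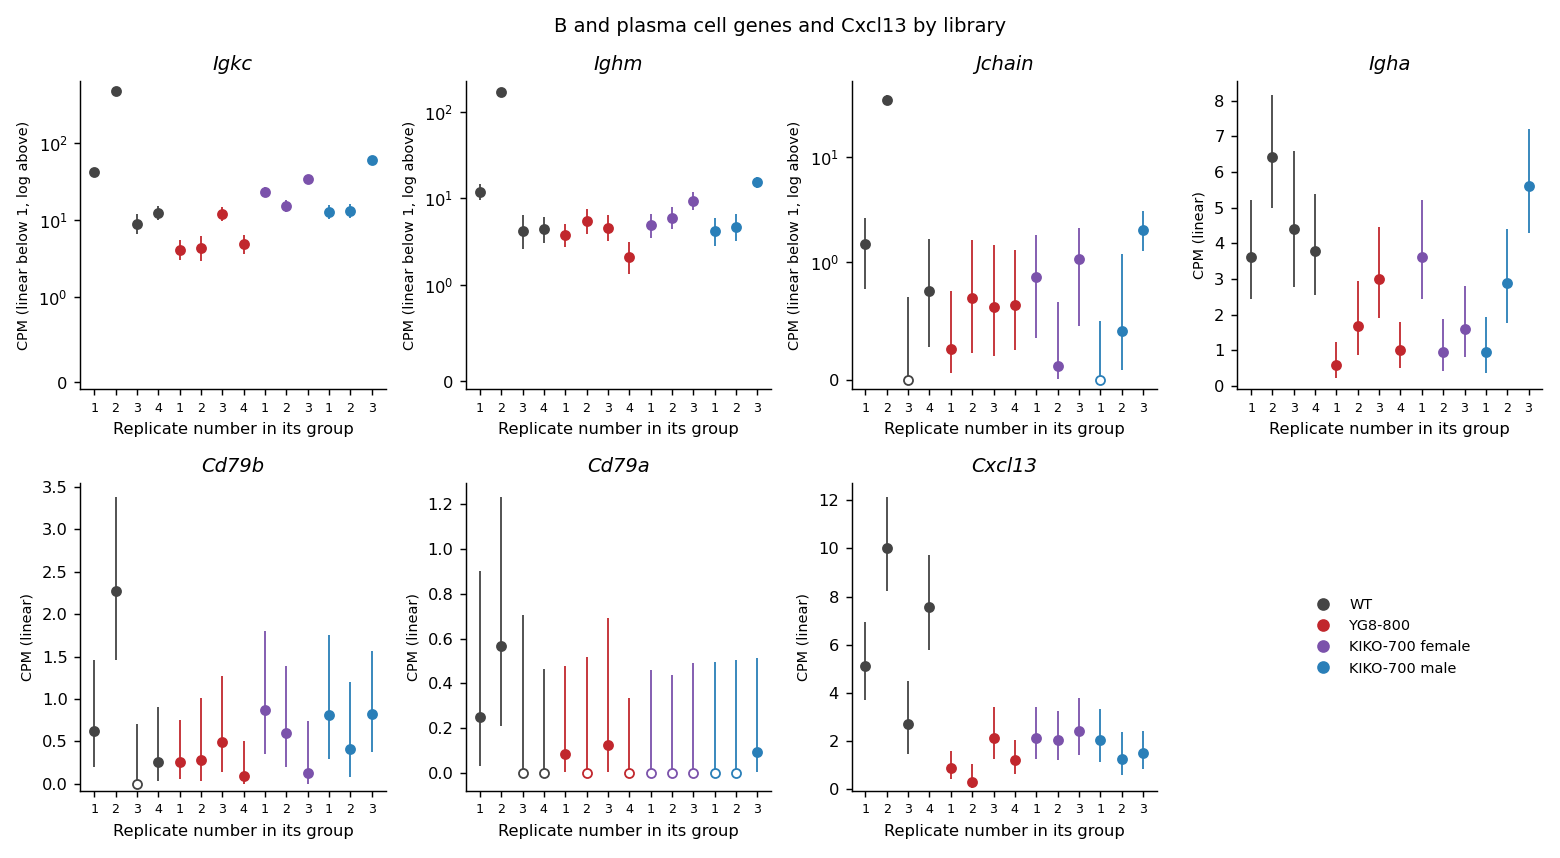
Level of each of the 7 genes in every library (CPM; the axis of *Igkc*, *Ighm* and *Jchain* is linear below 1 and logarithmic above, the others are linear), with 1 point per library and exact 95% Poisson intervals of its count. Open points are libraries with 0 counts. WT 2 is the highest library in all 7 genes, by 8.06 times in *Igkc* and by 1.15 times in *Igha*.

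Ordered by group mean, *Cxcl13* stood at 6.35 ± 3.16 CPM in WT (SD, n = 4), 2.18 ± 0.194 CPM in KIKO-700 females (SD, n = 3), 1.57 ± 0.403 CPM in KIKO-700 males (SD, n = 3) and 1.11 ± 0.769 CPM in YG8-800 (SD, n = 4). The last 2 ranges overlap, and so do those of the KIKO-700 females and YG8-800. WT 3, the lowest WT library at 2.68 CPM, lay above the highest KIKO-700 female at 2.40 CPM. *Igkc* was ordered WT (137 ± 233 CPM), KIKO-700 male (28.8 ± 27.3 CPM), KIKO-700 female (24.1 ± 9.55 CPM) and YG8-800 (6.31 ± 3.78 CPM), with an SD above the mean in WT. All neighbours in that order overlapped except KIKO-700 female and YG8-800. *Ighm* stood at 47.4 ± 81.1, 8.07 ± 6.32, 6.72 ± 2.32 and 3.98 ± 1.44 CPM in the same order of groups. Its neighbours all overlapped. *Igha* was ordered WT (4.56 ± 1.29 CPM), KIKO-700 male (3.14 ± 2.35 CPM), KIKO-700 female (2.06 ± 1.40 CPM) and YG8-800 (1.57 ± 1.05 CPM), each overlapping the next.

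**Figure D2:**
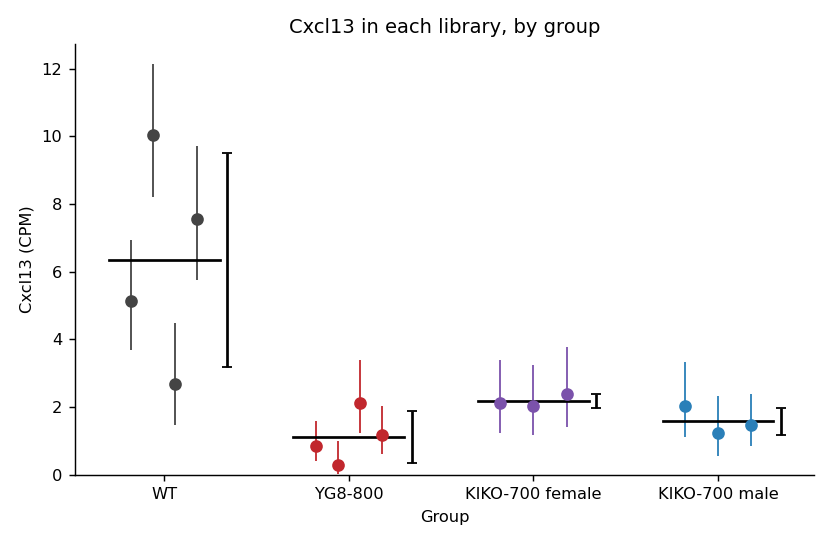
*Cxcl13* in CPM for each library of the 4 groups, with exact 95% Poisson intervals, the group mean (horizontal bar) and its SD (capped bar to the right of the points). The 4 WT libraries sit at 2.68 CPM or above and the 4 YG8-800 libraries at 2.12 CPM or below.

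Without WT 2, the WT mean of *Igkc* was 21.03 ± 18.02 CPM and that of *Ighm* 6.83 ± 4.37 CPM (SD, n = 3), beside 6.31 and 3.98 CPM in YG8-800. The WT mean of *Jchain* became 0.752 ± 0.75 CPM beside 0.554 ± 0.201 CPM in YG8-800, a difference within the SD. For *Cd79b* the means became 0.292 and 0.282 CPM. *Igha* kept 3.94 ± 0.411 CPM in WT and *Cxcl13* 5.12 ± 2.44 CPM.

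The YG8-800 and WT libraries, as labelled, were compared to ask which of these genes differ with the line, in a fit over all genes that passed edgeR's filter on low counts. Of the 7 genes, *Igkc*, *Ighm*, *Igha* and *Cxcl13* passed the filter, and *Jchain*, *Cd79a* and *Cd79b* did not. The log2 fold change was -4.01 (standard error 1.38) for *Igkc*, -3.22 (standard error 1.25) for *Ighm*, -1.38 (standard error 0.46) for *Igha* and -2.26 (standard error 0.53) for *Cxcl13*. Without WT 2 it was -1.47 for *Igkc* and -0.62 for *Ighm*, and for *Igha* and *Cxcl13* leaving out any 1 library gave -1.95 to -1.11 and -2.73 to -1.92. The edgeR quasi-likelihood test with Benjamini and Hochberg's adjustment called 0 of the 4 genes at an adjusted p under 0.05, where it called 0 of all 11875 genes tested (0%). For all genes limma-voom also called 0 and DESeq2 called 7, *Cxcl13* among them. At an unadjusted p under 0.05, 4 of the 4 passed, where 6.05% of all genes did. Every YG8-800 library lay below every WT library in *Igha* and *Cxcl13* by CPM, as in 3.18% of all genes, and in *Cxcl13* alone after TMM scaling, as in 2.15%. Since these genes were selected on the same libraries, nothing is read from these counts. In bulk tissue, fewer cells of a type and less RNA per cell cannot be told apart.

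*Xist* divided both groups in the same experiment. Among libraries with *Xist* high, *Cxcl13* stood at 5.13 to 10.03 CPM in WT (n = 3) and 0.858 and 2.12 CPM in YG8-800 (n = 2). Among those with *Xist* low, it stood at 2.68 CPM in WT 3 and 0.28 and 1.18 CPM in YG8-800 2 and 4. Since every YG8-800 library lay below every WT library in *Cxcl13*, any division of these libraries gives the same direction. The low level held 1 WT library, and nothing is read from the division. *Igkc* ranged from 12.4 to 487 CPM in WT and from 4.12 to 11.96 CPM in YG8-800 where *Xist* was high, and stood at 8.99 CPM in WT 3 and 4.34 and 4.81 CPM in YG8-800 where it was low. By CPM the same holds for *Igha*. Where *Xist* was high it stood at 0.601 and 2.99 CPM in YG8-800 beside 3.63 to 6.43 CPM in WT. Where *Xist* was low it stood at 1.68 and 0.999 CPM beside 4.401 CPM. *Ighm* overlapped at both levels. With the *Xist* level in the fit, the log2 fold changes were -3.01 for *Igkc*, -2.48 for *Ighm*, -1.34 for *Igha* and -1.94 for *Cxcl13*.

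KIKO-700 males were compared with females to ask whether these genes differ with sex within that line. The same 4 genes passed the filter, and edgeR's test called 0 of them among 8 of 11801 genes at an adjusted p under 0.05 (0.0678%) and 0 of them at an unadjusted p under 0.05, where 7.14% of all genes passed. The log2 fold change, males less females, was 0.34 (standard error 0.74) for *Igkc*, 0.37 (standard error 0.54) for *Ighm*, 0.71 (standard error 0.64) for *Igha* and -0.46 (standard error 0.33) for *Cxcl13*. Male 3 set the sign of the 3 immunoglobulin genes: without it the values were -0.93, -0.64 and -0.14. For *Cxcl13* they were -0.59 to -0.33 with any 1 library left out, and every male lay below every female, as in 6.4% of all genes by CPM and 7.13% after TMM scaling. The nearest pair, male 1 and female 2, both stood at 2.02 CPM.

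**Figure D3:**
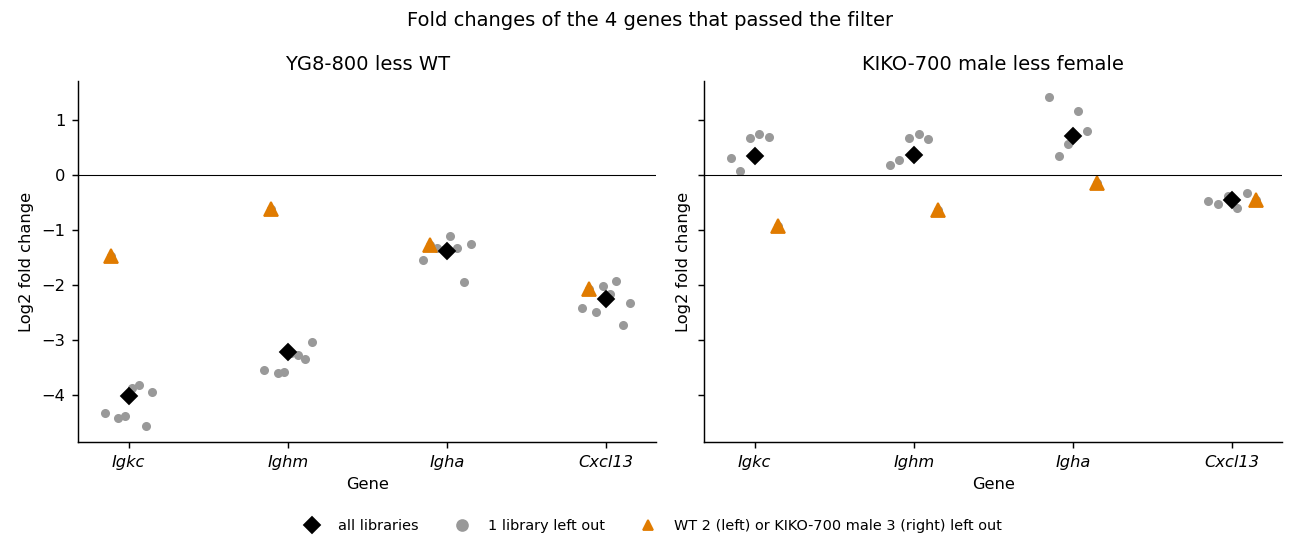
Log2 fold change of the 4 genes that passed the filter, YG8-800 less WT (left) and KIKO-700 male less female (right). Diamonds are fits to all libraries, grey points fits with 1 library left out, and triangles fits without WT 2 (left) or KIKO-700 male 3 (right). Without WT 2 *Igkc* moved from -4.01 to -1.47, while *Cxcl13* stayed between -2.73 and -1.92.

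The mix of antibody classes differed between libraries and was read from all 13 constant-region genes of the annotation, of which 12 had a count. QuantSeq reads start at the 3′ end of a transcript, and the 255 variable, diversity and joining segments together held 6 counts, so the clones behind these levels cannot be read. *Ighm* made up 73.1% of heavy-chain constant counts in WT 2 (71.3% to 74.9%, exact Clopper-Pearson interval, 2443 counts). In the other 13 libraries its share was 18.5% to 45.5%, and none of their intervals reached that of WT 2. *Igha* made up 2.78% there (2.17% to 3.52%) and 5.06% to 29.1% elsewhere. *Ighg2c*, the IgG heavy chain gene with the most counts, stood at 49.7 CPM in WT 2 and between 4.55 and 12.2 CPM in the other 13, a narrower range than *Ighm* (2.09 to 15.4 CPM) or *Igkc* (4.12 to 60.3 CPM) had there. It held the most heavy-chain counts in WT 4, in all YG8-800 libraries and in 5 of 6 KIKO-700 libraries. In WT 3 the counts of *Ighg2c*, *Igha* and *Ighm* were 25, 23 and 22. In KIKO-700 male 3, *Ighm* held the most, at 44.4% (39.3% to 49.6%).

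**Figure D4:**
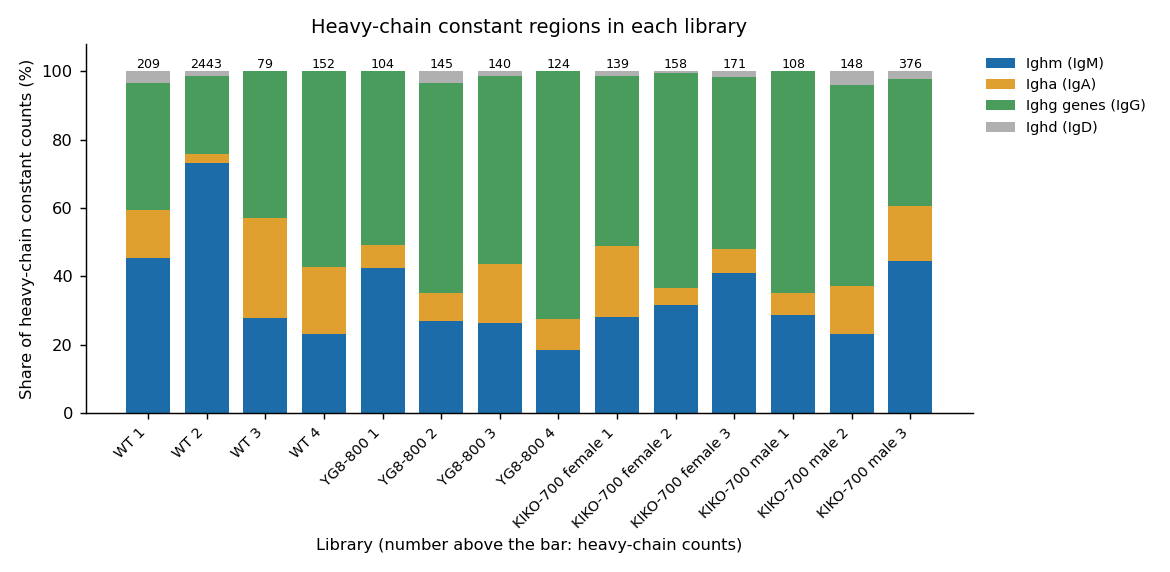
Share of IgM, IgA, IgG and IgD genes among heavy-chain constant counts in each library (%), with the number of counts above each bar. IgM takes 73.1% in WT 2 and at most 45.5% in the other 13 libraries.

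Light chains gave a further difference between the 2 libraries highest in *Igkc*. Lambda chain genes, *Iglc1*, *Iglc2* and *Iglc3*, held 1.87% of light-chain counts in WT 2 (1.52% to 2.27%, exact interval) and 7.35% in KIKO-700 male 3 (5.53% to 9.52%). Both shares lay within the range of the other libraries, 1.04% in KIKO-700 male 1 to 11.4% in YG8-800 2. Those 2 extremes rest on 1 and 4 lambda counts. *Iglc1* alone had 45 counts in KIKO-700 male 3. *Iglc2* and *Iglc3* are near-identical and their split is uncertain, so only the sum is used. The ratio of *Igkc* to *Ighm* counts was 2.88 in WT 2 and 3.93 in KIKO-700 male 3, within the 2.14 to 4.72 of the other WT and KIKO-700 libraries. It was 1.09, 0.795, 2.60 and 2.30 in YG8-800 1 to 4. Values for single genes among these were chosen after they were seen.

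Other genes of B cells, 26 in a list, mostly had a mean under 1 CPM, as *Cd79a* and *Cd79b* did. Only 4 had a mean of at least 1 CPM: *Ebf1*, a factor of B cell commitment that other stromal and fat cells also express, *Bank1* and *Blnk*, adaptors of the B cell receptor, and the tetraspanin gene *Cd37*. Of the 26, 13 were highest in WT 2 and 18 had no count in WT 3. Among those under 1 CPM and named after their values were seen, *Ms4a1*, which encodes CD20, had 38 of its 75 counts in WT 2, *Ly6d* 57 of 92, *Ighd* 34 of 68 and the coactivator *Pou2af1* 36 of 76. *Ebf1* stood at 28.6 CPM in WT 2 and 9.20 to 20.9 CPM elsewhere. The summed level of the list was 15.4 to 59.4 CPM in WT, 15.02 to 29.4 CPM in YG8-800, 20.1 to 22.8 CPM in KIKO-700 females and 17.8 to 29.4 CPM in males. *Ebf1* was the largest part of each sum, with 28.6 of 59.4 CPM in WT 2 and 20.9 of 29.4 CPM in YG8-800 2. The sums are therefore not levels of B cells alone. Of the list, 3 genes were tested in YG8-800 against WT. At an unadjusted p under 0.05, 0 passed, where 6.05% of all genes did. Their median log2 fold change was -0.30, beside -0.0056 over all genes. In KIKO-700 0 of 3 passed, where 7.14% of all genes did, and with so few genes no absence of change is read from either count.

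Of 19 other plasma cell genes, 6 had a mean of at least 1 CPM. They were *Ighg2c*, the plasma cell regulators *Xbp1* and *Prdm1*, the surface proteoglycan *Sdc1*, and *Fkbp11* and *Creld2*, which act in the endoplasmic reticulum. Of these *Xbp1* was highest in YG8-800 2 (41.6 CPM), then in WT 2 (38.7 CPM), and ranged from 12.3 to 29.9 CPM elsewhere. *Creld2* was highest in WT 2 at 7.38 CPM (1.84 to 5.17 CPM elsewhere), and so was *Prdm1* at 2.37 CPM (0.404 to 2.15 CPM elsewhere). *Sdc1* and *Fkbp11* were not, at 1.04 and 1.23 CPM in WT 2. The summed level was 116 CPM in WT 2 and 36.7 to 47.3 CPM in the other WT libraries, beside 31.5 to 65.4 CPM in YG8-800 and 32.5 to 43.1 CPM in KIKO-700. The largest part of it was *Ighg2c* in WT 2 (49.7 of 116 CPM) and *Xbp1* in YG8-800 2 (41.6 of 65.4 CPM). Of the 6 tested, 0 passed an unadjusted p under 0.05 in either comparison, where 6.05% and 7.14% of all genes did. So few genes cannot show an absence of change. Their median log2 fold change was 0.09 in YG8-800 and 0.01 in KIKO-700 males.

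Genes that recruit B cells or keep them alive, formed a list of 17 with *Cxcl13* left out. The 5 that were tested had a median log2 fold change of -0.17 in YG8-800, beside -0.0056 over all genes. *Cxcl12*, a chemokine of stromal cells, stood at 36.9 to 65.1 CPM in WT and 38.6 to 79.9 CPM in YG8-800, and its receptor *Cxcr4* at 1.53 to 2.93 and 1.37 to 2.62 CPM. *Cxcr5*, the receptor of CXCL13, had 11 counts in all 14 libraries, too few for a comparison. The survival factor gene *Tnfsf13*, which encodes APRIL, ranged from 4.00 to 7.08 CPM in WT and 2.09 to 5.46 CPM in YG8-800, and the lymphotoxin receptor gene *Ltbr* from 12.5 to 19.0 and 8.76 to 21.6 CPM. Of these 5, 1 passed an unadjusted p under 0.05 in YG8-800, where 6.05% of all genes did, and 0 in KIKO-700, where 7.14% did. That gene, *Ccl21a*, a chemokine of lymphatic vessels and lymphoid stroma, held 10.3, 21, 12.1 and 11.2 CPM in YG8-800 1 to 4, beside 17.3 to 25.2 CPM in WT, a log2 fold change of -0.61. It missed the unadjusted threshold without WT 2, 3 or 4, without YG8-800 1, 3 or 4, by limma-voom and with a replicate block, at -0.65 to -0.43. *Glycam1*, a ligand of lymph node vessels named after its values were seen, had 29 of its 30 counts in WT 2.

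**Figure D5:**
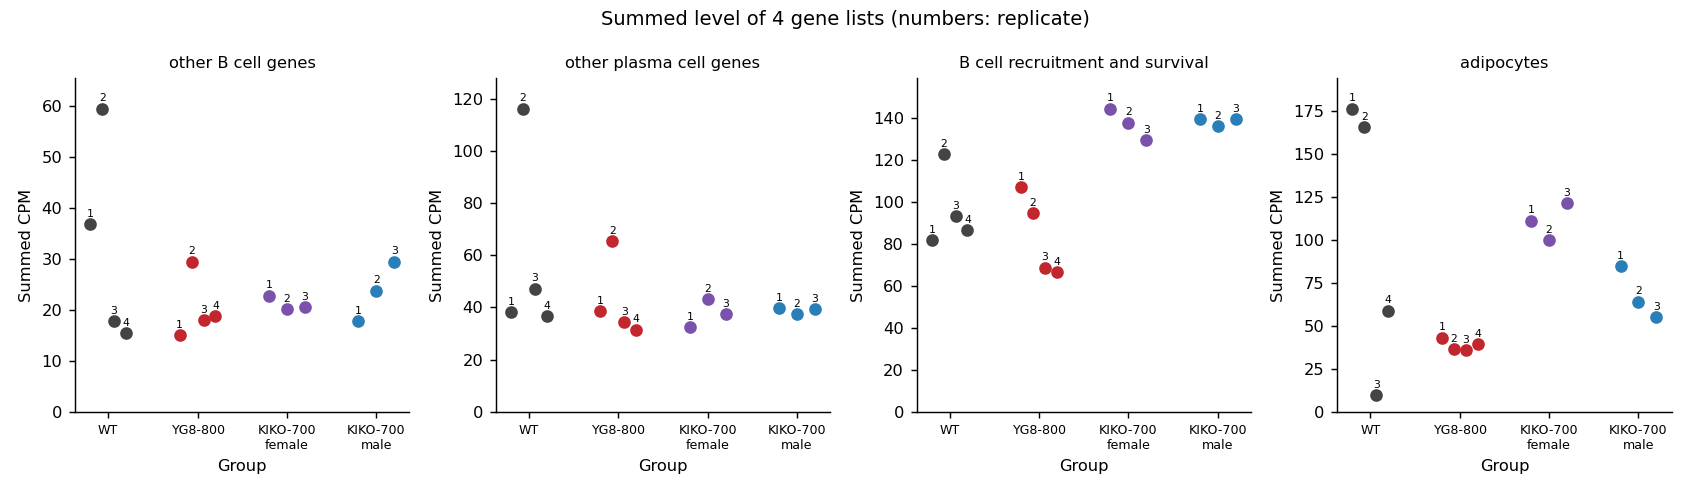
Summed level (CPM) of 3 lists of B lineage and recruiting genes and of adipocyte genes in each library, by group, with the replicate number above each point. WT 2 is the highest point of the first 2 lists (59.4 and 116 CPM), and WT 1 and WT 2 are the highest in the adipocyte list (176 and 166 CPM). In WT 2, *Ebf1* held 28.6 CPM of the first sum, and *Xbp1* and *Ighg2c* held 38.7 and 49.7 CPM of the second.

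Genes of other cell types were read beside these levels. Of 8 adipocyte genes, *Cfd* stood at 95.5, 61.6, 1.15 and 16.6 CPM in WT 1 to 4 and 4.24 to 9.17 CPM in YG8-800, and *Plin4* at 7.08 to 53.6 and 24.4 to 35.4 CPM. The list's summed level was 9.38 to 176 CPM in WT, 35.9 to 43.0 CPM in YG8-800, 99.8 to 121 CPM in KIKO-700 females and 54.8 to 84.7 CPM in males. WT 3, lowest of WT in *Igkc*, *Ighm*, *Jchain* and *Cxcl13*, was also lowest in this list. In contrast, KIKO-700 male 3, highest of its line in *Igkc*, was the lowest of that line in the list. Likewise YG8-800 3, highest of its group in *Igkc* and *Cxcl13*, was the lowest of that group in the list, at 35.9 CPM. At an unadjusted p under 0.05, 3 of 5 tested adipocyte genes were lower in YG8-800, where 3.01% of all genes were, and 5 of 6 in KIKO-700 males, where 3.75% were. Of 15 genes of mesothelium and cavity macrophages, the summed level was 106 and 110 CPM in WT 1 and 2, 58.6 and 48.0 CPM in WT 3 and 4, 46.4 to 68.2 CPM in YG8-800 and 21.2 to 38.5 CPM in KIKO-700. Its highest genes, *Gata6*, which cardiomyocytes also express, and *Upk3b*, stood at 57.2 and 10.5 CPM in WT 2, beside 13.6 to 34.6 and 4.29 to 17.1 CPM in YG8-800. In WT 1, 3 and 4, *Gata6* stood at 29.8, 15.9 and 14.4 CPM and *Upk3b* at 24.4, 14.2 and 15.5 CPM. WT 2 was thus the highest WT library in *Gata6*, the largest part of its sum, and the lowest in *Upk3b*. The part of these cells in the levels of *Igkc* or *Cxcl13* was not tested.

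Red blood cell genes did not peak in WT 2. The 6 of them summed to 6791 CPM in WT 1 and 5222 CPM in WT 2, 1481 to 3790 CPM in YG8-800 and at least 14082 CPM in every KIKO-700 library. The 16 T cell and thymus genes summed to 12.6 CPM in WT 2, 1.72 to 6.5 CPM in the other WT libraries, 1.45 to 4.03 CPM in YG8-800 and 15.5 CPM in KIKO-700 female 2, the highest of all, so that WT 2 was the highest of its own experiment only. Macrophage genes summed to 326 to 422 CPM in WT and 220 to 270 CPM in YG8-800. How often such sums separate the groups was not measured, and by library size alone the median log2 fold change over all genes was -0.21. At an unadjusted p under 0.05, 2 of 11 were lower and 0 higher in YG8-800, where 3.01% and 3.04% of all genes were. In KIKO-700 males 2 were lower and 1 higher, where 3.75% and 3.39% of all genes were. Neutrophil genes summed to 8.88 to 63.1 CPM in WT, 30.9 to 49.3 CPM in YG8-800, 5.2 to 5.63 CPM in KIKO-700 females and 12.6 to 43.9 CPM in males. Both of the 2 tested were higher in KIKO-700 males at an unadjusted p under 0.05, where 3.39% of all genes were. Cardiomyocyte genes, *Actc1* and *Mb* the highest on average, summed to at least 16852 CPM, so heart muscle was present in every library. They were lowest in WT 3 (16852 CPM) and WT 2 (19899 CPM), beside 24389 to 40881 CPM in the others. Whether other tissue was taken with a heart was not tested. Atrial genes summed to 568 to 1449 CPM in WT and 84.9 to 1224 CPM in YG8-800. The part of macrophages, neutrophils or atrial tissue in the levels of *Igkc* or *Cxcl13* was not tested.

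Likeness over the 14 libraries was measured as Pearson's r of log2 CPM between each of the 2 genes *Igkc* and *Cxcl13* and 12497 genes with a mean of at least 1 CPM, as a description. Libraries share depth, cohort and line, so no p is given. Among the chosen genes, *Ighm* was most like *Igkc* (r = 0.93, Spearman's rho 0.83, and r = 0.84 without WT 2). *Jchain* had r = 0.83 with *Igkc*, which fell to 0.54 without WT 2, and *Igha* 0.65, which fell to 0.57. Outside the immunoglobulin genes the 3 most like *Igkc* were *Strn*, *Cebpa* and *Acvr2a*. *Strn* encodes a scaffold protein (r = 0.88, rho 0.69), *Cebpa* a transcription factor of fat and myeloid cells (r = 0.86, rho 0.79), and *Acvr2a* an activin receptor (r = 0.86, rho 0.82). All 3 were highest in WT 2, and without it their r was 0.67, 0.71 and 0.70. Without both WT 2 and KIKO-700 male 3, the libraries farthest from the median of *Igkc*, it was 0.88, 0.70 and 0.82. With each group's mean taken out, r was 0.89, 0.82 and 0.79.

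*Cxcl13* was most like *Ms4a6b*, a membrane protein gene of immune cells (r = 0.86, rho 0.81), *Retn*, the adipocyte hormone resistin (r = 0.86, rho 0.91), and *Enc1*, an actin-binding protein gene (r = 0.84, rho 0.79). Without WT 2 their r was 0.87, 0.80 and 0.76, without both WT 2 and YG8-800 2, farthest from the median of *Cxcl13*, 0.93, 0.81 and 0.80, and with group means taken out 0.63, 0.68 and 0.69. *Retn* stood at 7, 6.53, 0.383 and 1.64 CPM in WT 1 to 4 and at 0 to 0.374 CPM in YG8-800. Between *Igkc* and *Cxcl13* themselves r was 0.69 (rho 0.57), 0.51 without WT 2, 0.81 without WT 4, 0.67 without both WT 2 and KIKO-700 male 3, 0.36 without both WT 2 and YG8-800 2, and 0.54 with group means taken out. WT 4 held the second highest *Cxcl13* of all libraries and *Igkc* at 12.4 CPM, below the median of 12.98 CPM.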

How the data were processed

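RNA of whole mouse hearts was read in 14 Lexogen QuantSeq 3′ FWD libraries. Each library's file, as deposited, pairs Ensembl genes with raw counts, with no normalization by the authors. The submitters' processing notes name STAR 2.5.0a, HTSeq 0.6.1 and GRCm38.p6, whereas the study's methods describe ShortRead, Rsubread, stranded counting with featureCounts, and limma. These accounts were not reconciled here. Molecular identifiers are not mentioned, so copies of 1 molecule may be counted more than once. Neither source says that hearts were pooled, and p-values measure the spread between these libraries.

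Of 54532 identifiers, 54409 were matched to GENCODE M21 symbols. CPM is the count divided by the library total, and log2 CPM used a prior count of 2. In R 4.3.3, genes were filtered by filterByExpr, scaled by TMM and tested with edgeR 4.0.16 (robust quasi-likelihood, Benjamini and Hochberg's adjustment, threshold 0.05), YG8-800 against WT and KIKO-700 male against female, each on its own libraries. The biological coefficient of variation was 0.351 and 0.170. Counts were simulated with the spread fitted for genes of a like level, without outlying libraries. Recovery of genes with a larger spread, such as *Igkc*, was thus not measured. On these counts, 84 of 93 genes with a simulated log2 change of 2 and 17 of 97 with one of 1 passed the adjusted threshold in the first comparison. In the second, 93 of 96 and 69 of 100 passed. Of the unchanged genes, 0 and 10 passed. Intervals are exact Poisson or Clopper-Pearson at 95% (SciPy 1.17.1).

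Members and gene lists were chosen with earlier results of these data known. Named list genes are those of the B lineage and recruiting lists with a mean of at least 1 CPM, the 2 genes of highest mean in most lists of other cell types, and the 3 genes most like *Igkc* and *Cxcl13*. *Iglc1*, *Ms4a1*, *Ly6d*, *Ighd*, *Pou2af1*, *Cxcr5* and *Glycam1* fall outside that rule and were added once their values had been seen. Alternatives were DESeq2 1.42.0 and voom in limma 3.58.1, other scaling (RLE, upper quartile, library size only), no filter or a minimum of 10 counts per library, a block on replicate number, *Xist* as a covariate, removal of genes of mitochondrial DNA, a prior count of 0.5, and removal of each library. The targeted gene is not reported here.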

Additional observations from a re-analysis of the deposited data

Results flagged for a closer look

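In groups of 4, a library was marked where its gap to the nearest other library exceeded 0.829 of the group's range (Dixon's 95% critical value), over the 7 genes and the summed levels of 11 lists. Of 36 groups tested, 5 passed. Chance marks about 1 in 20 groups, but 4 of the 5 concern genes that were chosen by these levels, so the marks are a description and are not read against that rate. *Igkc* in WT 2 stood at 487 CPM, with the other WT libraries at 8.99 to 41.8 CPM. *Ighm* in WT 2 stood at 169 CPM, with the others at 4.21 to 11.9 CPM. *Jchain* in WT 2 stood at 34.5 CPM, with the others at 0 to 1.5 CPM. The summed level of the other plasma cell genes in WT 2 was 116 CPM, with the others at 36.7 to 47.3 CPM, and *Ighg2c*, one of them, held 49.7 CPM of it. *Igkc* in YG8-800 3 stood at 11.96 CPM, with the other YG8-800 libraries at 4.12 to 4.81 CPM. *Cxcl13* was not marked in either group, nor were *Igha*, *Cd79a* and *Cd79b*.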

How the results depend on the processing

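The negative log2 fold changes of *Igkc*, *Ighm*, *Igha* and *Cxcl13* in YG8-800 against WT kept their sign under all alternatives run, at -4.55 to -1.47, -3.60 to -0.62, -1.95 to -1.11 and -2.73 to -1.92. In KIKO-700, male less female, *Igkc* turned from 0.34 to -0.032 by limma-voom and to -0.023 with a replicate block. With 1 library left out, *Igkc* ranged from -0.93 to 0.74, *Ighm* from -0.64 to 0.74 and *Igha* from -0.14 to 1.41, all below 0 without male 3 only. The count of all genes called at an adjusted p under 0.05 in YG8-800 against WT rose from 0 to 107 with no filter and to 7 by DESeq2. With 1 library left out the count was 0 to 146 (146 without WT 4). *Cxcl13* was among the 107 and the 7, but it was chosen on these same libraries, so nothing is read from that. At an unadjusted p the count of all genes rose from 718 to 1727 with no filter and was 484 to 1695 with 1 library left out. In KIKO-700 the adjusted count of 8 became 105 with no filter, 2 with at least 10 counts in every library, 18 by DESeq2 and 4 to 864 with 1 library left out (864 without male 1). The unadjusted count of 843 became 1475 with no filter and 460 to 2610 with 1 library left out. More genes were tested with no filter, and the cause of the other changes was not tested. Over the 3 lists of B lineage and recruiting genes, the count past the unadjusted threshold in YG8-800 rose from 1 to 13 with no filter and 2 with *Xist* as a covariate, was 0 by limma-voom and with the block, and was 0 to 1 with 1 library left out. In KIKO-700 it rose from 0 to 3 with no filter and to 1 without genes of mitochondrial DNA, and was 0 to 1 with 1 library left out. Library size alone moved the median over all genes to -0.21 in YG8-800 and split the genes past the unadjusted threshold into 171 higher and 675 lower, from 361 and 357, limma-voom into 662 and 347, and the block into 599 and 268. Replicate numbers did not pair libraries (correlations of deviations -0.225, 0.253, -0.0303 and 0.132 in the YG8-800 experiment and -0.164, -0.038 and -0.192 in KIKO-700). With the block the log2 fold changes in YG8-800 were -2.36 for *Igkc*, -1.64 for *Ighm*, -1.53 for *Igha* and -2.29 for *Cxcl13*, with 0 genes called. Depth limits *Cd79a*, *Cd79b* and *Jchain*, which did not pass the filter on low counts.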
